A study of Sus scrofa with 4 samples.

Results

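The kidney library of a Tibetan pig, a breed of Sus scrofa, was described across all gene models that reached 1 RPKM in it and set against the heart, liver and lung libraries of the same series. RPKM is a read count divided by the length of the model and the total of its library. Of the 18367 gene models with a read in any of the 4 libraries, 15960 had reads in kidney and 13208 reached 1 RPKM there. Each tissue had 1 library of the Tibetan breed, made from total RNA, and the labels give no treatment and no age, sex or number of animals for any of them. No value below therefore has a replicate check, and the intervals in brackets are exact 95% intervals that cover counting error only. The kidney library held 5486480 reads on gene models, against 14062622 in heart, 8853076 in lung and 4090775 in liver. At the median length of the kidney models, 1330 bases, 1 RPKM in kidney is 7.30 reads, and 1 read is worth 0.137 RPKM in kidney, 0.184 in liver, 0.0849 in lung and 0.0535 in heart.

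The kidney filters the blood in its glomeruli and takes back salt, water, glucose and amino acids along the tubule through membrane transporters that sit in its epithelial cells. The tubule uses much energy for this transport and is rich in mitochondria. Kidney shares with liver the making of glucose and much of the handling of amino acids. The files name gene models by identifiers of the form evm.model.scaffold with a scaffold number and a model number, and 0 of the 18367 identifiers matched the reference tables of pig genes. The kidney label was therefore not checked against marker genes, and no function can be given to a model. In whole tissue, the number of cells of a type and the RNA per cell cannot be told apart.

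Most kidney models stood at a low or middle level, while most reads fell on few models. Of the 13208 models, 4815 (36.5%) stood at 1 to under 10 RPKM and took 4.41% of the kidney reads (4.39 to 4.43). Another 6933 (52.5%) stood at 10 to under 100 RPKM and took 37.4% of the reads (37.3 to 37.4). The 1356 models at 100 to under 1000 RPKM were 10.3% of the models and took 38.5% of the reads (38.4 to 38.5). The 104 models at 1000 RPKM or more were 0.787% of the models and took 19.5% of the reads (19.5 to 19.6). The 2752 models with kidney reads below 1 RPKM took 0.201% (0.197 to 0.205). Ordered by reads, 15 models held 10% of the library, 117 held 25%, 2532 held 75% and 5351 held 90%. The limit of 1 RPKM cut through a continuous range: 139 models lay between 1 and 1.1 RPKM and 146 between 0.9 and 1.

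**Figure D1:**
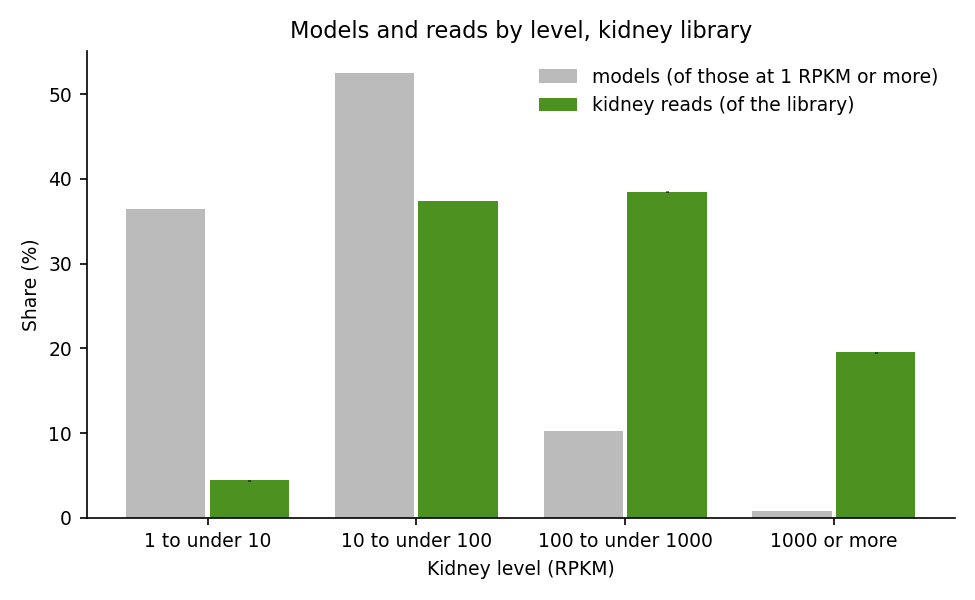
Share of the 13208 models at 1 RPKM or more in kidney (grey bars) and share of the reads of the kidney library (green bars) in 4 classes of kidney RPKM. Error bars on the read shares are exact 95% counting intervals, too narrow to see; the 2 upper classes hold 10.3% and 0.787% of the models and 38.5% and 19.5% of the reads.

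The read counts behind these levels differed by class. The median model had 31 reads (21.1 to 44.0) at 1 to under 10 RPKM, 202 reads (175 to 232) at 10 to under 100, 1018 (956 to 1083) at 100 to under 1000 and 6063 (5911 to 6218) at 1000 or more. Each bracket is the counting interval of a single model with that count, not an interval for the median over models. Single models of the lowest class rested on as little as 1 read. On either side of the limit of 1 RPKM, a model of 1458 bases with 8 reads stood just inside at 1.0001 RPKM, and a model of 547 bases with 3 reads just outside at 0.99963.

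Models of high kidney level were short. The median length was 1464 bases (quartiles 841.5 and 2373) at 1 to under 10 RPKM, 1371 bases (828 and 2247) at 10 to under 100, 905.5 bases (531 and 1417) at 100 to under 1000, and 606 bases (390 and 1095) at 1000 or more. Models under 600 bases made up 15.5%, 13.7% and 29.0% of the 3 lower classes and 52 of the 104 models of the highest, and models of 2400 bases or more made up 24.8%, 21.8%, 6.49% and 0.962% of the 4 classes. Lengths that were multiples of 3, as coding lengths are, made up 88.5%, 91.0%, 94.0% and 92.3% of them. Taken by length, the median kidney level was 25.6 RPKM for the 1668 models of 300 to under 600 bases and 10.95 RPKM for the 588 models of 4800 bases or more, while the 476 models under 300 bases had a median of 15.4 RPKM. RPKM divides by length, so a read on a short model weighs more. Models share a library and are no replicates of each other. Over the 13208 of them, Spearman's rho of level with length was -0.16 in kidney, -0.14 in liver, -0.09 in heart and 0.01 in lung.

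**Figure D2:**
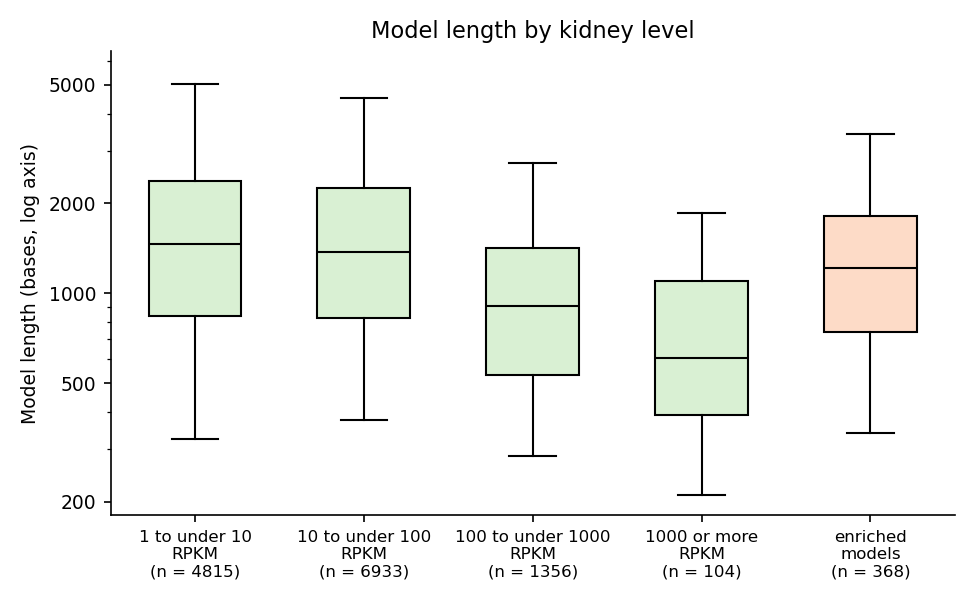
Length of gene models in bases (log axis) for the 4 classes of kidney RPKM and for the 368 kidney-enriched models. Boxes span the quartiles with a line at the median, and whiskers reach from the 5th to the 95th percentile; medians go from 1464 bases in the lowest class to 606 in the highest, and the enriched models lie at 1219.5.

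Most kidney models were also detected elsewhere, and lung detected the most of them. Of the 13208 models, 12385 (93.8%) reached 1 RPKM in lung, 11605 (87.9%) in heart and 10976 (83.1%) in liver. The libraries had the same order over all 18367 models, with 14010 at 1 RPKM or more in lung, 12455 in heart and 11470 in liver. All 3 other libraries reached 1 RPKM for 54.8% of the models at 1 to under 10 RPKM in kidney, 91.3% at 10 to under 100, 87.7% at 100 to under 1000 and 89.4% at 1000 or more. Of the models at 1 to under 10 RPKM in kidney, liver detected 62.7%, heart 78.3% and lung 88.6%, and liver was also the shallowest library.

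Kidney alone reached 1 RPKM for 399 models (3.02% of the 13208), which took 3.09% of its reads. Of these, 281 stood at 1 to under 10 RPKM, 82 at 10 to under 100, 35 at 100 to under 1000 and 1 at 1000 or more, at 1403 RPKM. The 35 models took 2.34% of the kidney reads, more than the 363 models below 100 RPKM, which took 0.146% and 0.375% in their 2 classes. Much of that share lay on long models. Of the 128448 reads of the 35, a model of 13947 bases held 41771 and one of 9684 bases held 16074. No other library had a read on 58 of the 399. These 58 had a median length of 537.5 bases and kidney levels of 1.02 to 272 RPKM, from 1 to 1000 reads, and 72.4% of their lengths were multiples of 3, against 90.4% of all 13208 models.

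The models at 1000 RPKM or more in kidney differed in how many other libraries reached that level, and those below it elsewhere were not always far below. Of the 104, 16 reached 1000 RPKM in all 4 libraries, 12 in 2 others, 36 in 1 other and 40 in kidney only. In the first group kidney stood at a median of 0.827 times the highest other library, with a range of 0.390 to 2.15, and the median length was 490.5 bases. The 40 models of kidney only had a median length of 901.5 bases and took 9.04% of the kidney reads, against 2.73% for the 16. Their ratio to the highest other library ran from 1.08 to 2112, with a median of 3.59.

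Kidney was the highest library for a larger share of models in the upper level classes. It was highest for 930 of 4815 models (19.3%) at 1 to under 10 RPKM, 2827 of 6933 (40.8%) at 10 to under 100, 824 of 1356 (60.8%) at 100 to under 1000 and 61 of 104 (58.7%) at 1000 or more. It was the lowest of the 4 libraries for 9.93%, 2.02%, 0.737% and 0% of them. The classes were cut on the kidney level itself, which favours kidney in the upper ones, so these shares describe the classes and test nothing. They also depended on scaling. Median-ratio scaling sets the libraries level at their median model, with factors of 1.27 for kidney, 1.38 for lung, 0.927 for heart and 0.614 for liver. After it, kidney was highest for 15.3%, 26.0%, 38.1% and 32.7% of the same classes, and lowest for 25.5%, 12.3%, 4.65% and 8.65%.

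Against each tissue singly, the difference was taken as a fold of RPKM + 1, which understates the change of low models, and a 4-fold difference was counted. Over 15357 models that reached 1 RPKM in at least 1 library, kidney was higher than heart in 12.5% and lower in 6.27%, higher than liver in 14.4% and lower in 3.40%, and higher than lung in 9.15% and lower in 12.7%. Among the 13208 kidney models, 1927 (14.6%) were higher and 583 (4.41%) lower than in heart, 2213 (16.8%) higher and 285 (2.16%) lower than in liver, and 1405 (10.6%) higher and 1264 (9.57%) lower than in lung. A model below 1 RPKM in kidney cannot be 4-fold higher there on this scale, so the counts of higher models are the same in both sets and nothing is read from the shares. The 3 comparisons share the kidney library.

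The median kidney model was 1.03 higher in kidney than in liver on the log2(RPKM + 1) scale, 0.49 higher than in heart and 0.03 lower than in lung. After median-ratio scaling these medians were 0.14, 0.10 and 0.08 in favour of kidney. The cut on kidney level itself favours kidney in these medians. Over the wider set of 15357 models, the medians against liver, heart and lung were 0.87, 0.31 and -0.19 as deposited. After median-ratio scaling they were 0.06, 0 and -0.08. That scaling sets the libraries level at their median model, so small medians follow from it and nothing is read from them. Among the kidney models, 88.6% of the 4-fold calls against liver were higher in kidney as deposited. After that scaling the share was 66.1%, with 1125 higher and 576 lower models. Against heart the share went from 76.8% to 64.3%, and against lung from 52.6% to 56.7%. Over the 15357 models it went from 80.9% to 56.7% against liver and from 66.7% to 54.6% against heart. Against lung it went from 41.9% to 46.5% over those models.

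By level, the comparison with lung changed side. At 1 to under 10 RPKM in kidney, 927 of 4815 models (19.3%) were at least 4-fold higher in lung and 153 (3.18%) at least 4-fold higher in kidney. At 100 to under 1000 RPKM, 23 of 1356 (1.70%) were higher in lung and 506 (37.3%) in kidney. At 1000 RPKM or more, 56 of 104 were higher in kidney and 0 in lung. The median log2 differences in the 4 classes were -0.66, 0.12, 1.30 and 2.37 against lung, 0.08, 0.63, 1.15 and 1.39 against heart, and 0.87, 1.10, 1.23 and 0.94 against liver. After median-ratio scaling they were -0.53, 0.24, 1.42 and 2.49 against lung, -0.26, 0.20, 0.70 and 0.94 against heart, and 0.16, 0.12, 0.19 and -0.10 against liver. The sign thus turned against heart in the lowest class and against liver in the highest. As above, the cut on kidney level itself favours kidney in the upper classes.

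The difference from lung also ran with model length, whereas that from liver did not. For models under 300 bases the median kidney minus lung difference was 0.69 on the log2 scale, and it was 0.58 at 300 to under 600 bases, 0.20 at 600 to under 1200, -0.10 at 1200 to under 2400, -0.41 at 2400 to under 4800 and -0.71 at 4800 or more. Relative to the median of all kidney models, the shortest class stood at 0.73 and the longest at -0.68. The sign of the middle classes turned with scaling, at 600 to under 1200 bases under TPM-like scaling (-0.051) and at 1200 to under 2400 bases under median-ratio scaling (0.019), and that of the shortest and longest classes did not. Kidney exceeded lung in 64.3% of the models under 300 bases and in 21.3% of those of 4800 bases or more. The medians against liver lay between 1.02 and 1.05 in all 6 length classes. Those against heart lay between 0.35 and 0.62 below 4800 bases and at -0.01 for 4800 bases or more.

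Reads were spread over the lengths in a like way. Models of 2400 bases or more and at 1 RPKM in kidney took 17.9% (2400 to under 4800 bases) and 8.16% (4800 or more) of the kidney reads, and 22.8% and 15.5% of the lung reads. The gradient against lung was seen at low and middle levels. At 1 to under 10 RPKM in kidney the median difference was 0.01 for models under 600 bases and -0.94 for those of 2400 or more, and at 10 to under 100 RPKM it was 0.65 and -0.27. At 100 to under 1000 RPKM it was 1.29 for the 393 short models and 1.22 for the 88 long ones. Where 10 RPKM was required of every library, so that the kidney level alone did not choose the models, the difference went from 0.76 for 136 models under 300 bases to -0.50 for 110 of 4800 or more. The cause of the gradient was not tested.

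**Figure D3:**
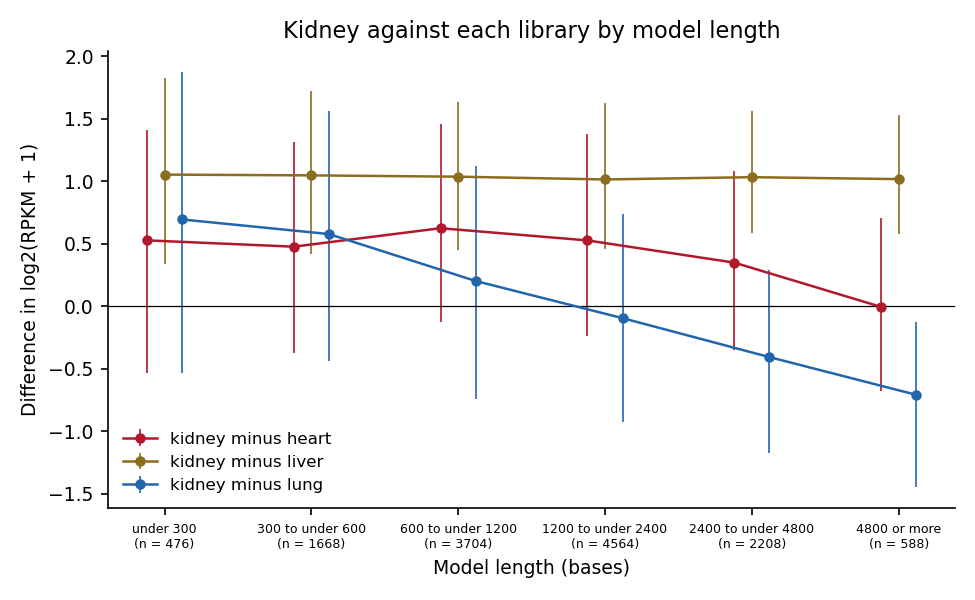
Kidney minus heart, liver and lung in log2(RPKM + 1) over 6 classes of model length in bases, for the 13208 models at 1 RPKM or more in kidney. Points are medians and vertical lines span the quartiles over models, not an error between samples; the lung line goes from 0.69 to -0.71, and the liver line stays between 1.02 and 1.05.

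Kidney-enriched models were those at 10 RPKM or more in kidney whose RPKM + 1 was at least 5 times that of the highest other library. There were 368 of 18367 models with a read, or 2.00%. They made up 2.90% of the kidney models at 10 to under 100 RPKM (201), 11.1% at 100 to under 1000 (150) and 16.3% at 1000 or more (17). Their folds on the RPKM + 1 scale had a median of 12.2: 158 lay between 5 and 10, 167 between 10 and 100, and 43 at 100 or more. The level and fold chose these models and are a description. Just inside the 5-fold limit lay a model of 24.1 RPKM in kidney and 4.01 in lung, and just outside it a model of 37.9 RPKM in kidney and 6.82 in lung. Between 5 and 6 lay 58 models, and 77 others of 10 RPKM or more lay between 4 and 5. At the limit of 10 RPKM, a model at 10.2 RPKM lay just inside and one at 9.96 just outside. For 324 of the 368 the counting interval of the RPKM ratio to the next-highest library lay wholly above 5. These include the 17 models with no reads in any other library. The same counts chose the models, and a ratio of RPKM exceeds the fold of RPKM + 1 that the rule used. The number is therefore a description and no check of the calls.

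The rule for enriched models did not use length directly, and their lengths were close to those of other models of that level only when all levels were pooled. Enriched models had a median length of 1219.5 bases (quartiles 741 and 1820), against 1275 (759 and 2085) for the 8025 other models at 10 RPKM or more. Within level classes the order turned. At 10 to under 100 RPKM the enriched models were shorter, at a median of 1155 against 1377 bases. At 100 to under 1000 RPKM they were longer, at 1248 against 873 bases, and at 1000 RPKM or more the 17 enriched models had a median of 1218 bases against 567 for the 87 others. Across these 3 classes the median length of enriched models lay between 1155 and 1248 bases, and that of the others went from 1377 to 567. No test was made, since models are not replicates.

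**Figure D4:**
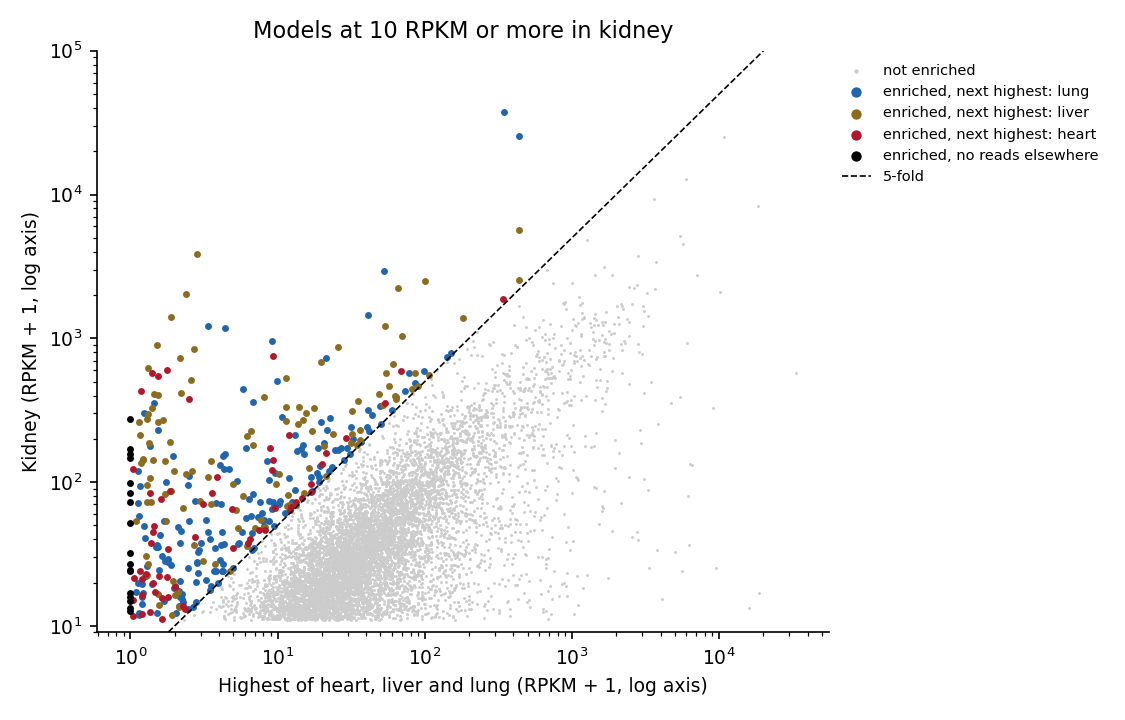
Kidney level against the highest level in heart, liver and lung (both RPKM + 1, log axes) for the 8393 models at 10 RPKM or more in kidney. Grey points are the 8025 models not enriched, coloured points the 368 enriched models by their next-highest library, and the dashed line marks 5-fold; 17 enriched models with no reads elsewhere sit at the left edge.

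Lung was the next-highest library of the largest group of enriched models, but the group with liver next had the higher kidney levels. Of the 368, lung was next for 177 (48.1%), liver for 114 (31.0%) and heart for 60 (16.3%), and 17 (4.62%) had no reads in any other library. Among the 3344 other models at 10 RPKM or more for which kidney was highest, lung was next for 48.1% too, liver for 24.7% and heart for 27.2%. For the enriched models, a counting interval was taken for the ratio of the next-highest library to the library ranked just below it. It lay above 1 in 110 of the 177 with lung next, 59 of the 114 with liver next and 23 of the 60 with heart next. The same counts ranked the libraries, so these numbers are a description and no check of the tissue named as next. The 114 models with liver next had a median kidney level of 188 RPKM and took 6.75% of the kidney reads (6.73 to 6.77). The 177 with lung next had a median of 64.0 RPKM and took 5.40% (5.38 to 5.41), and the 60 with heart next a median of 63.2 RPKM and 1.97% (1.96 to 1.98). The median fold was 19.4 with liver next, 13.2 with heart next and 9.41 with lung next. Of the 43 models at 100-fold or more, liver was next for 24, lung for 9 and heart for 6, and 4 had no reads elsewhere.

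The share with liver next was larger in the upper level classes. It was 18.9% (38 of 201) at 10 to under 100 RPKM, 44.0% (66 of 150) at 100 to under 1000 and 58.8% (10 of 17) at 1000 or more, whereas lung went from 53.7% to 42.0% and 35.3%. The same order was present in the models for which kidney was highest without being enriched. There liver was next for 21.1% of 2626, 36.8% of 674 and 52.3% of 44 models in these classes, and lung for 52.1%, 34.6% and 20.5%. The tissue named as next depended on scaling. With their levels scaled by median ratio, an alternative chosen after seeing the data, liver was next for 56.1%, 69.1% and 81.8% of these models that were not enriched, and lung for 18.7%, 11.3% and 11.4%. When median-ratio scaling was applied to the levels of the same 368 models, liver was next for 159 (43.2%) and lung for 127 (34.5%). When it was also used to choose the models, 289 were enriched, with lung next for 125 and liver for 101. In both versions the liver library is scaled up most.

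**Figure D5:**
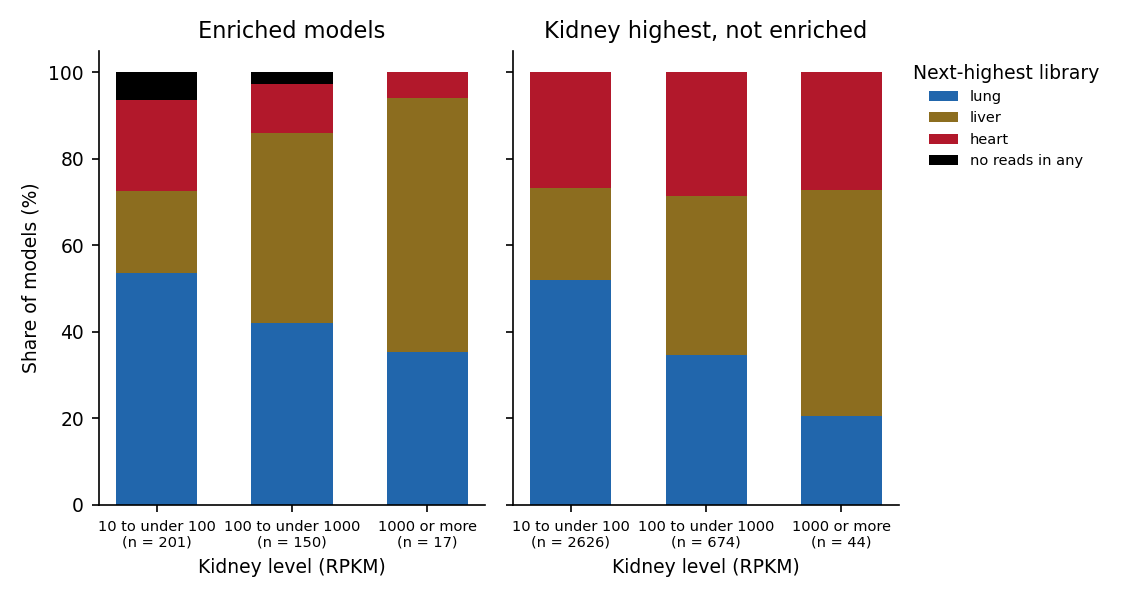
Share of models (%) by next-highest library in 3 classes of kidney RPKM, for enriched models (left) and for models highest in kidney but not enriched (right), with RPKM as deposited. The liver share goes from 18.9% to 58.8% on the left and from 21.1% to 52.3% on the right; the last class on the left holds 17 models.

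The level left in the other tissues was mostly low in the enriched models, which the 5-fold rule favours. Grouping by next-highest library also fixes that library as the one of highest median in its group. The levels below are thus a description of the models chosen. In the next-highest library, 118 of the 368 enriched models stood below 1 RPKM, 108 at 10 RPKM or more and 10 at 100 RPKM or more. Among models with liver next, the median was 4.27 RPKM in liver, 0.242 in heart and 0.279 in lung. With lung next it was 3.40 RPKM in lung, 0.497 in heart and 0.433 in liver. With heart next it was 1.32 RPKM in heart, 0.611 in lung and 0.212 in liver. Over all 368, liver had 0 reads for 92, heart for 70 and lung for 57. The 17 without reads elsewhere were short, with a median of 510 bases, and stood at 11.6 to 272 RPKM in kidney from 14 to 1000 reads. For a count of 0 the floor is 3 counts per library.

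The highest enriched models are shown with their values in every library, as the 2 of highest kidney RPKM. The model evm.model.scaffold42338.8, of 219 bases, stood at 37344 RPKM in kidney (36999 to 37691), 78.6 in heart (69.0 to 89.1), 177 in liver (151 to 207) and 342 in lung (316 to 369). Its kidney level was 109-fold that of lung (101 to 118), 210-fold that of liver (180 to 247) and 475-fold that of heart (419 to 541). The model evm.model.scaffold48410.1, of 322 bases, stood at 25696 RPKM in kidney (25460 to 25934), 71.6 in heart (64.0 to 79.8), 139 in liver (120 to 161) and 436 in lung (412 to 461), which made kidney 59.0-fold higher than lung (55.7 to 62.4). With RPKM as deposited, both were highest in kidney, with lung, liver and heart following in that order. No counting intervals of the 4 libraries overlapped. The order of liver and lung depended on scaling. After median-ratio scaling the log2 difference of evm.model.scaffold42338.8 was 6.67 from liver and 6.89 from lung, which put liver next. For evm.model.scaffold48410.1 lung stayed next. By reads the models ranked 5 and 4 in kidney.

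Against a single tissue, models were ranked by the fold of RPKM + 1, and the folds given for them are ratios of RPKM itself. The model evm.model.scaffold540.18, of 1866 bases, had the largest RPKM + 1 fold against heart, liver and lung alike. It stood at 3873 RPKM in kidney (3835 to 3911) from 39647 reads, against 0.495 in heart (0.264 to 0.847) from 13 reads, 1.83 in liver (1.00 to 3.08) from 14 reads and 0.0605 in lung (0.0015 to 0.337) from 1 read. As a ratio of RPKM, the kidney level was 7817-fold that of heart (4571 to 14682) and 2112-fold that of liver (1258 to 3863). The ratio to lung rested on 1 read and had an interval of 11482 to 2526943. This model ranked 11 in the kidney library by RPKM and 7 by reads.

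The model evm.model.scaffold36240.20, of 1869 bases, was second on the RPKM + 1 scale against heart and against lung but not against liver. It stood at 5667 RPKM in kidney (5621 to 5714), 439 in liver (424 to 454), 1.64 in heart (1.18 to 2.20) and 1.21 in lung (0.738 to 1.87). As a ratio of RPKM, kidney was 12.9-fold above liver (12.5 to 13.4), 3464-fold above heart (2571 to 4787) and 4689-fold above lung (3036 to 7677). Second against liver on the RPKM + 1 scale was evm.model.scaffold878.3, of 345 bases, at 955 RPKM in kidney (912 to 1000), 8.19 in lung (5.30 to 12.1), 0.206 in heart from 1 read and 0 reads in liver. Against the floor of 3 counts in liver, kidney was at least 449-fold higher. Kidney and liver thus both carried evm.model.scaffold36240.20 at a level far above heart and lung, while the other model was near 0 in heart and liver.

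In the other direction, the kidney models of largest RPKM + 1 fold toward another tissue all stood below 10 RPKM in kidney. Against heart they were evm.model.scaffold2587.12, at 2.28 RPKM in kidney (0.836 to 4.96) from 6 reads and 19221 in heart, and evm.model.scaffold5062.10, at 6.91 RPKM in kidney (4.16 to 10.8) and 36416 in heart. Both had 0 reads in liver and lung. Against liver they were evm.model.scaffold27953.4, at 8.23 RPKM in kidney (6.57 to 10.2), 1.64 in heart and 63.6 in lung, and evm.model.scaffold21842.4, at 6.11 RPKM in kidney (4.26 to 8.50), 2.32 in heart and 639 in lung. Liver stood at 59403 and 30733 RPKM. For both of these the kidney level lay between heart and lung. Against lung the first was evm.model.scaffold24645.7, with 4.77 RPKM in kidney (2.67 to 7.87), 6.83 in liver and 16784 in lung, and the second evm.model.scaffold45520.21, with 3.80 RPKM in kidney (1.23 to 8.86), 6.11 in liver and 7034 in lung. For this last pair the counting intervals of kidney and liver overlapped. The kidney values of these 6 models were between 0.0119% and 0.0540% of the level in the leading tissue.

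Few models were low in kidney while high everywhere else. With RPKM as deposited, 14 models, 0.0762% of all, stood at 10 RPKM or more in the other 3 libraries with the lowest of them at least 5 times kidney on the RPKM + 1 scale. No count under this rule is given for another tissue, so the number is not read as a trait of kidney. The model evm.model.scaffold34928.14 stood at 61.7 RPKM in kidney (57.5 to 66.1), 448 in heart (440 to 455), 641 in liver (625 to 657) and 1591 in lung (1574 to 1608). The model evm.model.scaffold46697.1 stood at 9.17 RPKM in kidney (6.31 to 12.9), 95.5 in heart (89.3 to 102), 188 in liver (172 to 205) and 330 in lung (315 to 345). In both, with RPKM as deposited, lung was highest, then liver, then heart, and kidney lay apart from all 3. After median-ratio scaling the log2 difference of evm.model.scaffold46697.1 was -5.22 from liver and -4.86 from lung, which put liver highest. For evm.model.scaffold34928.14 lung stayed highest, at -4.53 against -4.39 for liver.

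Some enriched models carried neighbouring numbers on the same scaffold. The 368 models lay on 301 scaffolds, of which 255 held 1, 31 held 2, 10 held 3, 4 held 4 and 1 held 5. Of the 323 enriched models for which a model of the next lower or higher number had a read in any library, 47 (14.6%) had such a neighbour that was enriched too, against 235 of 7355 (3.20%) for other models at 10 RPKM or more in kidney. On scaffold31207, 5 of 8 models were enriched, at 15.6 to 122 RPKM in kidney and 10.8-fold to 28.6-fold, with lung next for 3, liver for 1 and heart for 1. All 4 enriched models of scaffold42772 had lung next, and 3 of the 4 on scaffold47835 had liver next, with no reads elsewhere for the remaining one. The next-highest library was mixed on the other scaffolds with 4 enriched models: lung for 2, liver for 1 and heart for 1 on scaffold48469, and 1 each for lung, liver, heart and no reads elsewhere on scaffold11160. These scaffolds were picked after their values were seen. The files do not say whether neighbouring models are parts of a gene or separate genes.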

How the data were processed

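Whole-tissue RNA of heart, liver, lung and kidney was sequenced as 1 library each. Trizol extraction and an Illumina TruSeq RNA library kit were used, per the labels' protocols. TopHat, a spliced aligner, is named in the submitters' processing notes. Not given in the sources used here are the read counter, its handling of strand and of multiple matches, the build and the annotation. Per the file headers, the authors deposited a read count, a length and an RPKM for each gene model. Counts summed to the stated library totals, and the deposited RPKM equalled count over length and total within a relative tolerance of 1e-12. No file listed a model at 0, so a missing model was taken as 0 reads.

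Models were joined on their identifiers. Level classes, length classes, folds on RPKM + 1 and next-highest libraries were computed from the deposited RPKM with Python 3.11.15, pandas 2.3.3, numpy 2.4.6 and scipy 1.17.1, and figures with matplotlib 3.10.9. Intervals are exact 95% intervals, Poisson for a count and Clopper-Pearson for a share or a ratio of 2 counts. They cover counting error only, because each tissue had 1 library. PCR copies of a molecule were not marked, and the intervals treat every read as separate. With 1 library per tissue no test was possible. The members, classes and rules were chosen with earlier results of these data known. Named models are the 2 enriched and 2 depleted models of highest level and, for each single tissue, the 2 of largest fold in each direction among models at 1 RPKM or more in kidney. Marker lists for the 4 tissues could not be looked up, since 0 identifiers matched a name. Length within level classes, the sharing of levels of 1000 RPKM and scaffold neighbours were examined after seeing the data. Alternatives in scaling, depth, pseudocount, missing models, fold and level were computed.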

Additional observations from a re-analysis of the deposited data

How the results depend on the processing

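No paired analysis was possible because there was a single library for every tissue, which also means that none could be left out. The count of models at 1 RPKM or more in kidney stayed within 1.5 times under its 5 alternatives, and the median length of models at 1000 RPKM or more stayed within the 95% order-statistic range of that median under its 4. Median-ratio scaling gave 16.2% of kidney reads at 1000 RPKM or more (from 19.5%), 3089 models highest in kidney (from 4642), and 1125 above and 576 below liver (from 2213 and 285). TPM-like scaling gave a read share of 21.2%, and models listed in all 4 files 19.48%. That restriction also gave 229 enriched models (from 368), with heart next for 36 (from 60) and lung next for 116 (from 177). A 3-fold minimum gave 624 enriched models, with 100 next in heart, 197 in liver (from 114) and 310 in lung; a 10-fold minimum gave 210, with 35, 74 and 84. A level minimum of 100 RPKM gave 167. Lung stayed next more often than liver under the 8 other settings in scaling, depth, missing models, pseudocount and fold. Liver was next more often at the minimum of 100 RPKM (76 against 69) and when only the levels of the 368 were rescaled by median ratio, which was added after seeing the data (159 against 127). Under median-ratio scaling, 286 of the 289 enriched models were among the 368. Pseudocounts of 0.1 and 0.01 gave 3391 and 3525 models above liver. A 2-fold limit gave 4395 above and 1495 below heart (from 1927 and 583), 6825 and 595 for liver, and 3084 and 3057 for lung (from 1405 and 1264). An 8-fold limit gave 1007 and 263 for heart, 865 and 148 for liver, and 697 and 460 for lung. The kidney minus liver difference between models under 300 and those of 4800 bases or more, 0.04 on the log2 scale, had no stable sign: it was -0.091 under median-ratio scaling, -0.0052 under TPM-like scaling, -0.13 for models listed in all 4 files, and -0.10 and -0.11 with pseudocounts of 0.1 and 0.01. The same difference against lung (1.40) and heart (0.53) kept its sign. Length-class medians that turned sign were those against heart at 2400 to under 4800 bases (-0.048, median-ratio) and at 4800 or more (0.090 for models at 10 RPKM in all 4 libraries). Against lung they were those at 600 to under 1200 bases (-0.051, TPM-like) and at 1200 to under 2400 (0.019, median-ratio, and 0.049 for models at 10 RPKM in all 4 libraries). Of 156 log2 ratios of named models, 107 stayed within their counting intervals and 0 reversed. The cause of these changes was not tested beyond what each setting alters by construction. A read is worth the most RPKM in liver, the shallowest library. Thinning all libraries to equal depth gave 367 enriched models (from 368), and 2222 above and 283 below liver (from 2213 and 285).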
